A study of Mus musculus with 12 samples.

Results

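The 7 genes described here, Ms4a4a, Ms4a4b, Ms4a4c, Ms4a6b, Ms4a6c, Ms4a6d and Ms4a7, belong to the membrane-spanning 4-domains subfamily A (MS4A) cluster of mouse chromosome 19. They were taken by symbol from a raw count table of 54532 genes. Each symbol named 1 gene, and all 7 genes passed the filter on low counts, which left 15014 genes to be tested. Their transcripts were measured by sequencing polyadenylated RNA of TAMs (macrophages associated with a tumour), sorted from the gliomas of 6 mice labelled Ntv-a_Ink4a/Arf_KO. Every mouse had received Rhodamine-PFCE-NP, a rhodamine-labelled nanoparticle, into a vein 24 hours before its tumour was taken.

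The cells of each tumour were sorted as CD45+, CD11b+ and Ly6C- into a rhodamine-positive and a rhodamine-negative population, each of more than 2000 cells. The gate text gives Ly6C- 2 times, and whether the second stands for another antigen is not known. The rhodamine-positive cells carried the nanoparticle label, and the rhodamine-negative cells came from the same injected animals, so no library is from an uninjected mouse. This gave 6 rhodamine-positive and 6 rhodamine-negative libraries, paired by mouse, and the study set uptaking against non-uptaking TAMs. The labels give mice 5 and 6 as female and the other 4 as male. Ages are not given in the sources used here, and all 12 libraries carry the same batch label. Total counts were 13073189 to 17379314 in the rhodamine-positive libraries and 13421387 to 16167832 in the rhodamine-negative libraries.

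MS4A proteins cross the membrane 4 times and are found mostly in blood and immune cells, where several sit beside receptors and tune their signalling. The best known are Ms4a1, which encodes the B cell antigen CD20, and Ms4a2, which encodes the beta chain of the high-affinity IgE receptor of mast cells and basophils. MS4A4A is a surface protein of macrophages that associates with the fungal receptor dectin-1, and variants near human MS4A4A and MS4A6A have been tied to soluble TREM2. In the mouse brain Ms4a7 is widely used as a marker of border-associated and blood-derived macrophages against resident microglia. Ms4a4b was described in T cells, where its protein associates with the receptor GITR, encoded by Tnfrsf18.

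In GENCODE vM21, on build GRCm38, the 7 genes lie within a single stretch of chromosome 19. Ms4a7 is on the minus strand at chr19:11321039-11336146. It is followed on the plus strand by Ms4a4a (chr19:11375523-11392790), Ms4a4c (chr19:11404770-11427246), Ms4a4b (chr19:11443553-11467055), Ms4a6c (chr19:11469366-11482192) and Ms4a6b (chr19:11516512-11531256). Ms4a6d, at chr19:11586604-11604849, is again on the minus strand. Ms4a4a and Ms4a4c are neighbours separated by 11979 bases, and all 7 genes are annotated as protein-coding.

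The coding sequences fall into close and distant relatives, which matters for counting reads. Those of Ms4a4b and Ms4a4c are both 681 bases long and identical at 91.8% of aligned bases. Those of Ms4a6b and Ms4a6c were identical at 85.3%, Ms4a6b and Ms4a6d at 81.3%, and Ms4a6c and Ms4a6d at 79.1%. Every other pair among the 7 genes shared 57.9% to 68.3%. The longest run common to Ms4a4b and Ms4a4c covers 127 bases, coding bases 321 to 447 of each, and is shown in capitals because a read inside it could come from either gene.
Ms4a4b and Ms4a4c, shared coding run: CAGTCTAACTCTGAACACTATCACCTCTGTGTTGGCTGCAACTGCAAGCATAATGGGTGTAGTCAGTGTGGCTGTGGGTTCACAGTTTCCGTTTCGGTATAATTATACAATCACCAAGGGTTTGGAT

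Of all 50-base windows in the annotated transcripts of Ms4a4c, 8.19% also occurred in another gene, mostly Ms4a4b. The share was 2.4% for Ms4a4b, 3.57% for Ms4a6b, 2.54% for Ms4a6d, 0.306% for Ms4a7 and 0% for Ms4a4a. It was 51.4% for Ms4a6c, whose exons share 1088 bases with the antisense gene BE692007. The strand setting of the counting is not given in the sources used here. Reads in the bases shared by Ms4a6c and BE692007 therefore cannot be told apart, and the counts of the Ms4a4b and Ms4a4c pair may be partly shared.

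Promoter windows, from 250 bases before to 50 bases after a transcription start, were taken from RefSeq on GRCm38.p6, which held 7 windows for 6 of the 7 genes. Shown are that of Ms4a7, the member with the largest rise, that of Ms4a4b, the member with the largest fall, and, chosen after the values were seen, those of its close relative Ms4a4c and of Ms4a4a, which lies next to Ms4a4c. The RefSeq start of Ms4a4c lies inside the GENCODE gene rather than at its 5′ end. The windows are written 5′ to 3′ along the gene's strand, and capitals mark the motif letters found in them.
Ms4a7 (chr19:11336097-11336396, minus strand): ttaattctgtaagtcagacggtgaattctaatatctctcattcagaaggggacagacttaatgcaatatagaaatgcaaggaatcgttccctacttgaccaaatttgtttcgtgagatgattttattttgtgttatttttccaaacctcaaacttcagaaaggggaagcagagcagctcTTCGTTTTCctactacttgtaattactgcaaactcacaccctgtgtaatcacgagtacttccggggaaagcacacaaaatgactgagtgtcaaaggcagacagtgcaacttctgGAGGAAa
Ms4a4a (chr19:11375238-11375537, plus strand): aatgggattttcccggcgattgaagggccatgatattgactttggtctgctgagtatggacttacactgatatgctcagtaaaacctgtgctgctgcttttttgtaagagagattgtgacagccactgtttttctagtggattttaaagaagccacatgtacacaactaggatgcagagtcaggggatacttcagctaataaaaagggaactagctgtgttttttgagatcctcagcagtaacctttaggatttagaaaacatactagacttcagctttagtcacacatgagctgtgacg
Ms4a4c (chr19:11407411-11407710, plus strand): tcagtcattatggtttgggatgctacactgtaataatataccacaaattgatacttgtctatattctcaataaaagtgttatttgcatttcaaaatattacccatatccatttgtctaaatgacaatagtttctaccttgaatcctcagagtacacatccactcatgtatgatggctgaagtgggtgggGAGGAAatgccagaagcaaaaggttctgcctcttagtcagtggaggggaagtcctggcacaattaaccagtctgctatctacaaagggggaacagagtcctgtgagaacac
Ms4a4b (chr19:11443308-11443607, plus strand): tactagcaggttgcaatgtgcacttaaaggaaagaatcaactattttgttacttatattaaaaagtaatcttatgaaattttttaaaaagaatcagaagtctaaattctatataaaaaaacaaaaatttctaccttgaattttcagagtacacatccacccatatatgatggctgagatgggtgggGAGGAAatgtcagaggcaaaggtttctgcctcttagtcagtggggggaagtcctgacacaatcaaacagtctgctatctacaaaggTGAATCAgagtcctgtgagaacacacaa

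Motif letters were searched on both strands. They were GAGGAA (the PU.1-type core), GAAANNGAA (an ISRE-type core), TGANTCA (AP-1), TCANNTGA (an E-box of the MiT/TFE type) and TTGCNNAA (C/EBP type), which occur in 28.3%, 8.56%, 7.81%, 8.39% and 10.8% of all 32851 RefSeq promoter windows. GAGGAA was found in the windows of Ms4a4b, Ms4a4c and the upstream start of Ms4a7, at bases 187, 190 and 294 of each window. GAAANNGAA was found in both windows of Ms4a7 and in those of Ms4a6b and Ms4a6c, and TGANTCA in Ms4a4b at base 273 and in the downstream window of Ms4a7. The window of Ms4a4a held none of the 5, and no 2 matches overlapped. The Ms4a4b and Ms4a4c windows were identical at 79.5% of 283 aligned bases, and those of Ms4a6b and Ms4a6c at 85.9% of 220. These matches describe letters only.

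Within the cluster the 7 genes went different ways. Ms4a7, Ms4a4a and Ms4a6d rose by 1.19 to 1.41-fold in rhodamine-positive TAMs, Ms4a4c and Ms4a4b fell by 2.86 and 4.10-fold, and Ms4a6b and Ms4a6c did not pass the test. Each gene was tested by quasi-likelihood in edgeR with the mouse as a block, adjusted by the method of Benjamini and Hochberg over all 15014 genes, at a threshold of 0.05. Over all genes tested it called 13% higher and 13.2% lower in rhodamine-positive cells, 26.2% in either direction, so a call by itself is common in this comparison. In all, 3 of 7 members rose and 2 of 7 fell. No member lay wholly higher in rhodamine-positive libraries, as 4.14% of genes tested did. The median log2 fold change of the 7 was -0.01, beside -0.02 over all genes tested.

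Those calls covered 1955 genes higher and 1986 lower. The count of higher genes was 1257 without mouse 3, and scaling by library size alone turned the split into 852 higher and 3142 lower, with a median log2 fold change of -0.18 over all genes. Summed over the 7 members, transcripts made up 1282 ± 246.2 CPM (read counts relative to library size, after TMM scaling, a trimmed mean of M values) in the rhodamine-positive and 1231 ± 197.3 CPM in the rhodamine-negative libraries (SD, n = 6 each). The 2 sums differed by less than the spread between mice. Within mice, the sum was higher in the rhodamine-positive sort of 4 and lower in that of 2.

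**Figure D1:**
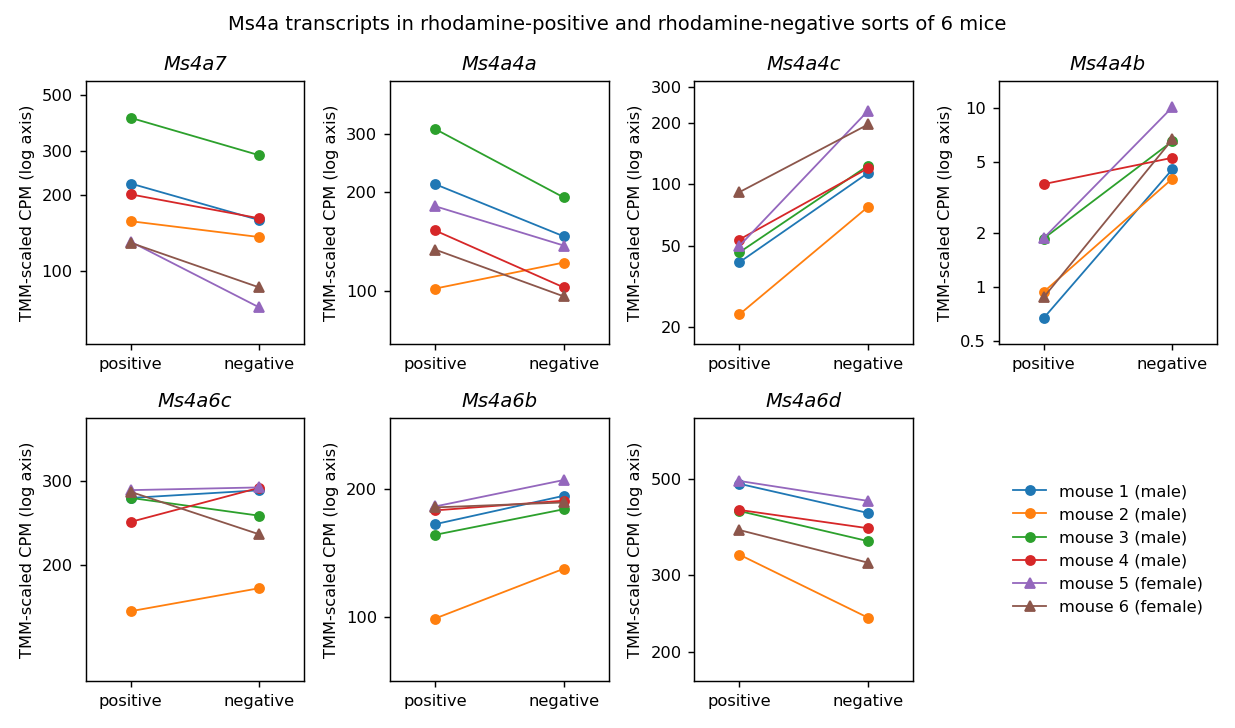
CPM of each of the 7 members (log axis, 1 panel per gene) in the rhodamine-positive sort (left) and the rhodamine-negative sort (right); each line joins the 2 libraries of 1 mouse, circles are male and triangles female mice. Lines climb to the right in all 6 mice for Ms4a4c and Ms4a4b and drop in all 6 for Ms4a7 and Ms4a6d, while mouse 2 has the lowest values of Ms4a6b and Ms4a6c in both sorts.

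Ms4a4c, a member expressed in monocytes and macrophages and known in the mouse as induced by interferon, had the smallest p of the family. In the rhodamine-positive libraries it had 22.96 CPM at the lowest, 48.08 at the median and 91.58 at the highest, against 77.56, 121.9 and 230.1 CPM in the rhodamine-negative libraries. The groups overlapped through 2 libraries, the rhodamine-positive sort of mouse 6 (91.58 CPM) lying above the rhodamine-negative sort of mouse 2 (77.56 CPM). Within every mouse, however, the rhodamine-positive sort was the lower one, by 2.15 to 4.61-fold.

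The fitted log2 fold change of Ms4a4c was -1.51 (SE 0.14, edgeR adjusted p = 2.11e-05), which ranked 84 by p among the 15014 genes tested. Being lower in all 6 pairs was the case for 14% of genes tested. The call held in each of the 16 other settings, which gave -1.67 to -1.37.

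Ms4a4b, the relative best known from T cells, was the scarcest member and showed the largest fall. It had 0.668 CPM at the lowest, 1.399 at the median and 3.75 at the highest in rhodamine-positive libraries, against 4.03, 5.90 and 10.12 CPM in rhodamine-negative libraries. These rest on 10 to 51 counts in a rhodamine-positive library and 67 to 155 counts in a rhodamine-negative one. The groups did not overlap, which was so, in the lower direction, for 4.67% of all genes tested. The log2 fold change was -2.03 (SE 0.32, edgeR adjusted p = 0.001).

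A call with a fall of at least 4-fold was made for 1.85% of the genes tested. The pairs of Ms4a4b spanned a wider range than those of Ms4a4c, with log2 differences of -2.76 to -0.48, the smallest difference being in mouse 4. Its call held in all 16 other settings, at -2.38 to -1.73. Because the 2 genes share sequence, the counts of Ms4a4b were set against those of Ms4a4c in each library. They amounted to 0.953% to 7.01% of the Ms4a4c counts in rhodamine-positive libraries and 3.39% to 5.28% in rhodamine-negative libraries. How far reads of Ms4a4c entered the Ms4a4b counts was not tested.

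Ms4a7, the marker of border-associated and blood-derived brain macrophages, had the largest rise among the 7. It had 129.4 CPM at the lowest, 179.5 at the median and 405.9 at the highest in rhodamine-positive libraries, against 71.58, 147.7 and 288.1 CPM in rhodamine-negative libraries. Mice differed from each other by more than the 2 sorts of a mouse did, mouse 3 being highest in both, so the groups overlapped widely. In each of the 6 mice the rhodamine-positive sort was the higher one, as for 14.2% of all genes tested, by 1.16 to 1.82-fold.

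The log2 fold change of Ms4a7 was 0.49 (SE 0.09, edgeR adjusted p = 0.00295). The call was lost when the mouse was left out as a block, at 0.47 and adjusted p = 0.355, and held in 15 of the 16 other settings.

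Ms4a4a, whose protein associates with dectin-1 in macrophages, had 101.4 CPM at the lowest, 166.9 at the median and 311.8 at the highest in rhodamine-positive libraries, against 96.03, 129.5 and 192.6 CPM in rhodamine-negative libraries. It was higher in the rhodamine-positive sort of 5 mice and lower in that of mouse 2 (101.4 CPM in its rhodamine-positive and 121.8 CPM in its rhodamine-negative sort), and the groups overlapped. Its log2 fold change was 0.40 (SE 0.12, edgeR adjusted p = 0.0237). This call sat near the threshold. Leaving out 1 mouse at a time gave adjusted p = 0.0648 without mouse 1, 0.0909 without mouse 3, 0.056 without mouse 4 and 0.0669 without mouse 6, at 0.35 to 0.53 on the log2 scale. The adjusted p was 0.107 in the 4 male mice alone, 0.143 with library size alone and 0.198 without the block.

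Ms4a6d, the most abundant member by CPM, had 335.1 CPM at the lowest, 423.9 at the median and 496.0 at the highest in rhodamine-positive libraries, against 239.5, 372.8 and 446.0 CPM in rhodamine-negative libraries. The rhodamine-positive sort was higher in all 6 mice, by 1.10 to 1.399-fold, with overlap between the groups. The log2 fold change was 0.25 (SE 0.08, edgeR adjusted p = 0.0382), the smallest among the called members. It missed the threshold without mouse 1 (0.0705), mouse 2 (0.114), mouse 3 (0.101) or mouse 6 (0.0899) and, among other settings, in the male mice alone (0.0871), without the block (0.289) and with library size alone (0.422).

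The other 2 genes of the 6-type, near-identical in stretches, did not pass. Ms4a6b had 99.19 CPM at the lowest, 171.5 at the median and 181.7 at the highest in rhodamine-positive libraries, against 129.8, 186.6 and 209.6 CPM in rhodamine-negative libraries. Its rhodamine-positive sort was the lower one in all 6 mice, by 1.03 to 1.31-fold, with a log2 fold change of -0.19 (SE 0.08, edgeR adjusted p = 0.0981). Library size alone (-0.35, adjusted p = 0.00822) and limma on the deposited log2 table (-0.22, adjusted p = 0.0335) put Ms4a6b past the threshold.

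Ms4a6c averaged 254.7 ± 48.8 CPM in rhodamine-positive and 255.0 ± 44.4 CPM in rhodamine-negative libraries (SD, n = 6 each), and was higher in the rhodamine-positive sort of 2 mice and lower in that of 4. Its log2 fold change was -0.01 (SE 0.09, edgeR adjusted p = 0.956). The antisense gene BE692007, which shares part of its exonic bases, gave a log2 fold change of -0.04 (edgeR adjusted p = 0.803). Its counts were 42.5% to 49.7% of those of Ms4a6c in rhodamine-positive libraries and 43.1% to 51% in rhodamine-negative libraries.

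**Figure D2:**
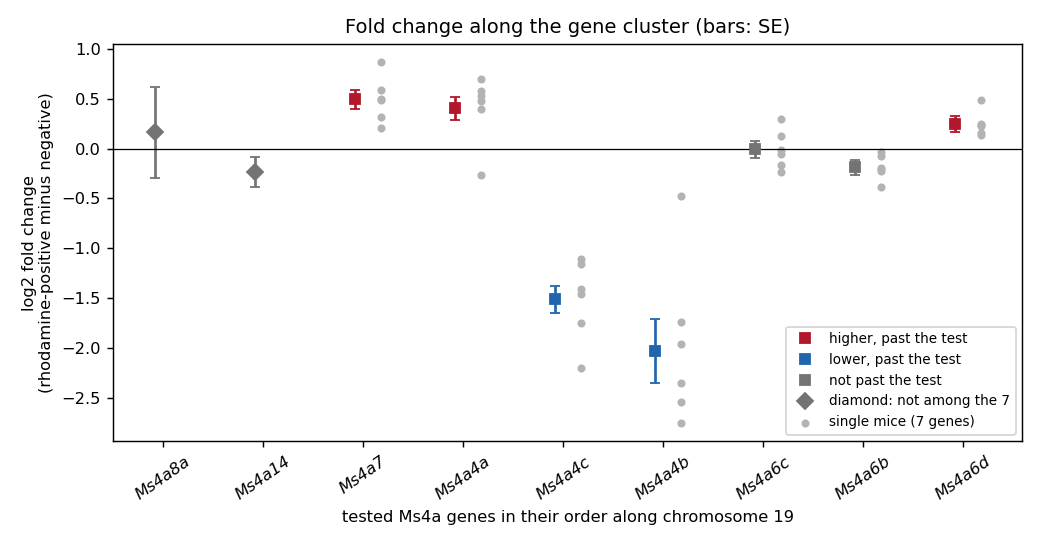
Log2 fold change (rhodamine-positive minus rhodamine-negative, vertical axis; bars are SE) of the 9 Ms4a genes that were tested, in their order along chromosome 19, with grey dots for the 6 single mice beside each of the 7 members. The neighbours Ms4a4a (0.40) and Ms4a4c (-1.51) lie on opposite sides of the zero line, and Ms4a4b shows the widest scatter between mice.

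Changes of members were also set against each other within a mouse. Between the neighbours Ms4a4a and Ms4a4c, the change of Ms4a4a exceeded that of Ms4a4c by 1.92 on the log2 scale on average (SD 0.41, 6 mice), with 1.49 as the smallest gap and the same direction in 6 of 6 mice. The change of Ms4a4c minus that of Ms4a7 was -2.01 on average (SD 0.55), again in 6 of 6 mice. The neighbours Ms4a4b and Ms4a4c, the close relatives, differed by -0.46 on average (SD 0.81), with Ms4a4b the lower of the pair in 5 mice and Ms4a4c in mouse 4. Ms4a4a and Ms4a7, also neighbours, differed by -0.09 (SD 0.32), in either direction in 3 mice each, and the neighbours Ms4a6b and Ms4a6c by -0.18 (SD 0.18), with Ms4a6b the lower in 5 of 6 mice. No p is attached to these differences.

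The ratio of Ms4a7 to Ms4a4c, as a difference of log2 CPM within a library, was 0.50 to 3.13 in the rhodamine-positive libraries and -1.68 to 1.22 in the rhodamine-negative libraries. It was positive in all 6 rhodamine-positive libraries. Among the rhodamine-negative libraries it was positive in the 4 male mice and negative in female mice 5 (-1.68) and 6 (-1.20). CPM is not divided by length here, so the sign depends on the lengths of the 2 genes. Only differences of the ratio between libraries can be compared.

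**Figure D3:**
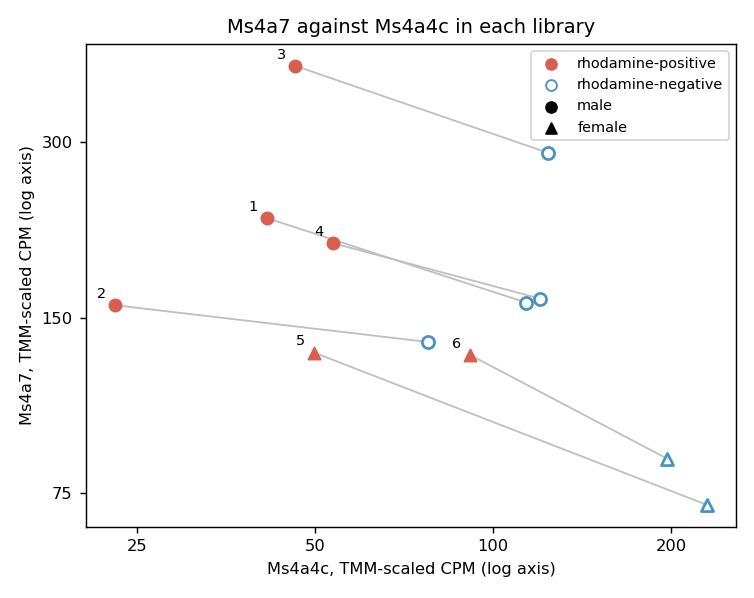
Ms4a7 (vertical) against Ms4a4c (horizontal), both in CPM on log axes, in each of the 12 libraries; filled symbols are rhodamine-positive, open symbols rhodamine-negative, triangles are female mice, and a line joins the 2 libraries of a numbered mouse. In each mouse the rhodamine-positive library lies to the upper left of its partner, with less Ms4a4c and more Ms4a7.

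For comparison between genes, CPM was divided by the length of the longest protein-coding transcript. In rhodamine-positive TAMs the order of CPM per kilobase was Ms4a6d (299.7 ± 43.5), Ms4a4a (217.7 ± 88.6), Ms4a6c (138.4 ± 26.5), Ms4a7 (131.9 ± 66.0), Ms4a6b (59.73 ± 11.8), Ms4a4c (29.57 ± 13.1) and Ms4a4b (0.350 ± 0.242), as mean ± SD over 6 mice. Ms4a6c and Ms4a7 did not differ beyond their spread, with Ms4a6c the higher in 4 of 6 mice, and Ms4a6d was above Ms4a4a in 5 of 6. In rhodamine-negative TAMs Ms4a4c stood at 83.41 ± 33.4 CPM per kilobase, between Ms4a7 (95.48 ± 48.9) and Ms4a6b (67.42 ± 10.1), and these 3 did not differ beyond their spread.

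The rest of the rhodamine-negative order of means was the same, with Ms4a6d at 255.1 ± 52.3, Ms4a4a at 158.8 ± 42.1, Ms4a6c at 138.5 ± 24.1 and Ms4a4b at 1.305 ± 0.461 CPM per kilobase. There Ms4a4a and Ms4a6c did not differ beyond their spread, with Ms4a4a the higher in 4 of 6 mice. Ms4a4c took 3.45% ± 1.72 of the summed CPM per kilobase of the 7 members in rhodamine-positive and 10.45% ± 3.99 in rhodamine-negative libraries (SD, n = 6 each). Dividing by all exonic bases instead left Ms4a6d, Ms4a4a and Ms4a6c on top but moved Ms4a7 to the sixth place in rhodamine-negative cells, at 33.79 ± 17.3.

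The other 12 Ms4a genes of the table were low or absent. Ms4a14, a neighbour of Ms4a7, averaged 10.07 ± 4.73 CPM in rhodamine-positive and 12.05 ± 5.66 CPM in rhodamine-negative libraries, with a log2 fold change of -0.24 (edgeR adjusted p = 0.271), and Ms4a8a gave 0.16 (edgeR adjusted p = 0.824) at 4 to 36 counts in a rhodamine-positive and 12 to 26 in a rhodamine-negative library. The remaining 10 did not pass the filter. Ms4a2, the mast cell and basophil gene, had 0 to 2 counts in rhodamine-positive libraries and 1 to 127 counts in rhodamine-negative libraries, the highest being that of mouse 5. Ms4a1, the CD20 gene, summed to 54 counts over the 6 rhodamine-positive and 54 over the 6 rhodamine-negative libraries. Ms4a4d summed to 5 counts in rhodamine-positive and 4 in rhodamine-negative libraries. Ms4a3, Ms4a5, Ms4a15 and Ms4a18 had no count in rhodamine-positive libraries and 1 or 2 in all rhodamine-negative libraries, and Ms4a10, Ms4a12 and Ms4a13 had none in either.

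Genes whose products are known to associate or act with MS4A proteins were also read out, from a list of 9 of which 8 were tested. Of these, 4 rose, 1 fell and 3 did not pass, with a median log2 fold change of 0.38. On the log2 scale, Fcer1g, the common gamma chain of Fc receptors, rose by 0.58 (edgeR adjusted p = 0.00587), averaging 2059 ± 144 CPM in rhodamine-positive and 1420 ± 378 CPM in rhodamine-negative libraries. Trem2, the lipid receptor of microglia and macrophages, rose by 0.63 on that scale (edgeR adjusted p = 0.0173), and its adaptor Tyrobp by 0.40 (edgeR adjusted p = 0.036). The IgG receptor Fcgr3 rose by 0.45 on the same scale (edgeR adjusted p = 0.0426).

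Tnfrsf18, which encodes the partner GITR of Ms4a4b, averaged 4.30 ± 2.16 CPM in rhodamine-positive and 19.59 ± 9.13 CPM in rhodamine-negative libraries. Its log2 fold change was -2.22 (edgeR adjusted p = 5.12e-05), lower in 6 of 6 mice with no overlap. Clec7a, which encodes dectin-1, averaged 439.4 ± 169 CPM in rhodamine-positive and 413.1 ± 83.0 CPM in rhodamine-negative libraries, and did not pass (log2 fold change 0.02, SE 0.12, edgeR adjusted p = 0.908). The tetraspanin genes Cd81 and Cd9 did not pass either, and Fcer1a had 0 to 10 counts in rhodamine-positive and 6 to 114 counts in rhodamine-negative libraries.

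Genes whose pattern over the 12 libraries was most like that of each member were found by the root mean square (RMS) difference of log2 CPM profiles, each centred on its own mean, among genes whose log2 CPM averaged 3 or more. For Ms4a7 these were the lysozyme gene Lyz2 (RMS difference 0.282), the matrix protease gene Mmp2 (0.328) and the protease inhibitor gene Timp2 (0.334), against a median of 0.701 over all candidates. For Ms4a4a they were Wfdc17 (0.208), Itsn1 (0.245) and Acp5 (0.261), with a median of 0.541. For Ms4a4c they were the co-stimulatory receptor gene Cd40 (0.343), Mxd1 (0.362) and Ifi213 (0.367), a gene of the interferon-inducible p200 family, with a median of 1.

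Ms4a4b was closest to Plekha5 (0.29), Tnfrsf18 (0.401) and Arhgap26 (0.434), with a median of 1.22. The second of these is the GITR gene described above. Ms4a6b and Ms4a6c had each other among their 3 nearest genes (0.137), beside U2af1 (0.134) and Timm10b (0.143) for Ms4a6b and Pa2g4 (0.12) and Hddc2 (0.146) for Ms4a6c, and these 2 members share sequence. Ms4a6d was closest to Prps1 (0.127), Pa2g4 (0.133) and Eif4a-ps4 (0.14). Likeness here is a ranking over 12 libraries that include the contrast itself.

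The cells were checked against markers of the cell types the gate could hold, whose changes are given as log2 fold changes. Ptprc and Itgam, the genes of the gate antigens CD45 and CD11b, and the macrophage gene Csf1r were present in every library. Csf1r averaged 4064 ± 490 CPM in rhodamine-positive and 3225 ± 856 CPM in rhodamine-negative libraries. Of the 9 markers in the macrophage list, which includes these gate genes, 5 rose. Among them were Cd68 (0.87, edgeR adjusted p = 0.000355), Adgre1 (0.81, edgeR adjusted p = 0.00116) and Lyz2 (0.69, edgeR adjusted p = 0.00118). The gate gene Ptprc, not limited to macrophages, fell by 0.56 (edgeR adjusted p = 0.000754). The summed level of the 9 was 15580 to 24520 CPM in rhodamine-positive and 8259 to 15590 CPM in rhodamine-negative libraries.

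Of the 9 markers of border-associated macrophages, a list without Ms4a7, 8 were tested and 6 rose, with a median of 0.83. Stab1 (0.92, edgeR adjusted p = 9.5e-05), Siglec1 (1.02, edgeR adjusted p = 0.000218) and Cbr2 (1.58, edgeR adjusted p = 0.000144) were among them. The defining marker Mrc1 averaged 57.34 ± 29.0 CPM in rhodamine-positive and 46.56 ± 27.8 CPM in rhodamine-negative libraries and did not pass (0.34, edgeR adjusted p = 0.0744), Cd163 did not pass, and Lyve1 was under the filter. Summed, the list held 771.0 to 1243 CPM in rhodamine-positive and 378.1 to 717.4 CPM in rhodamine-negative libraries. Most of that sum was Stab1, with 775.1 ± 115.7 CPM in rhodamine-positive and 412.6 ± 78.35 CPM in rhodamine-negative libraries.

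Of 10 microglia markers 3 rose, among them P2ry13 (0.49, edgeR adjusted p = 0.0226) and Fcrls (0.51, edgeR adjusted p = 0.028), and 7 did not pass, including P2ry12 (0.01, edgeR adjusted p = 0.977). Their summed level was 11970 to 18830 CPM in rhodamine-positive and 5638 to 17180 CPM in rhodamine-negative libraries. The sums of the macrophage, border-associated macrophage and microglia lists were each higher in the rhodamine-positive sort of all 6 mice, the direction of Ms4a7, and their part in its rise was not tested.

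Several markers of other cells were lower where Ms4a4c and Ms4a4b were lower. All 8 dendritic cell markers fell, with a median of -2.29, led by Cd209a (-3.40, edgeR adjusted p = 8.82e-07), Itgae (-2.52, edgeR adjusted p = 4.15e-06) and Flt3 (-2.36, edgeR adjusted p = 1.1e-05). Their summed level was 163.6 to 282.9 CPM in rhodamine-positive and 412.1 to 1485 CPM in rhodamine-negative libraries. The largest part of this sum was Ccr7, with 128.7 ± 40.07 CPM in rhodamine-positive and 360.2 ± 241.5 CPM in rhodamine-negative libraries. Ccr7 fell by less (-1.33, edgeR adjusted p = 0.00095), and its groups overlapped. Of 9 monocyte markers 3 fell, among them Plac8 (-2.83, edgeR adjusted p = 3.87e-06) and Ccr2 (-2.51, edgeR adjusted p = 5.44e-06). The other 6 did not pass, and of these Chil3 (0.70), F10 (0.40) and Fn1 (0.23) had positive values. Ly6c2, which encodes an antigen of the gate, had 0 to 87 counts in rhodamine-positive and 23 to 154 counts in rhodamine-negative libraries and did not pass (edgeR adjusted p = 0.0649). The monocyte list summed to 283.5 to 807.8 CPM in rhodamine-positive and 455.6 to 1252 CPM in rhodamine-negative libraries. That sum was lower in the rhodamine-positive sort of 5 mice and higher in that of mouse 4 (807.8 CPM in its rhodamine-positive and 455.6 CPM in its rhodamine-negative sort). Its largest part was Fn1, with 387.6 ± 187 CPM in rhodamine-positive and 326.5 ± 165 CPM in rhodamine-negative libraries, a matrix gene that is not limited to monocytes.

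T cell genes were near zero. Cd3e summed to 9 counts over the 6 rhodamine-positive and 4 over the 6 rhodamine-negative libraries, and Trbc2 had none in rhodamine-positive and 27 in rhodamine-negative libraries. Of 14 T and NK cell markers 3 were tested and 2 fell, Klrd1 (-3.09, edgeR adjusted p = 7.61e-06) and Gzmb (-5.44, edgeR adjusted p = 0.000252). The list summed to 2.86 to 12.19 CPM in rhodamine-positive and 44.38 to 111.2 CPM in rhodamine-negative libraries. Its largest part was Klrd1, with 6.05 ± 2.82 CPM in rhodamine-positive and 49.54 ± 16.9 CPM in rhodamine-negative libraries.

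Of 6 basophil and mast cell markers 4 were tested and all 4 fell, with Mcpt8 at -6.12 (edgeR adjusted p = 4.98e-05) and Hdc at -4.81 (edgeR adjusted p = 7.04e-05). Their sum was 0.187 to 21.89 CPM in rhodamine-positive and 6.62 to 435.1 CPM in rhodamine-negative libraries. None of 3 tested B cell markers passed (sums of 21.71 to 40.55 CPM in rhodamine-positive and 16.0 to 38.05 CPM in rhodamine-negative libraries, mostly Cd79b at 28.75 ± 9.05 CPM in rhodamine-positive and 23.63 ± 6.34 CPM in rhodamine-negative libraries), and of 2 tested neutrophil markers Mmp8 rose (1.52, edgeR adjusted p = 0.0363) while S100a8, S100a9 and Ly6g had at most 32 counts in any library. The neutrophil list summed to 251.7 to 417.0 CPM in rhodamine-positive and 200.5 to 386.0 CPM in rhodamine-negative libraries, nearly all of it from Csf3r, a receptor gene that mouse microglia also express, at 317.5 ± 61.1 CPM in rhodamine-positive and 288.7 ± 71.3 CPM in rhodamine-negative libraries. The part of these lists in the falls of Ms4a4c and Ms4a4b was not tested. In sorted bulk samples, fewer cells of a type and less RNA per cell cannot be told apart.

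**Figure D4:**
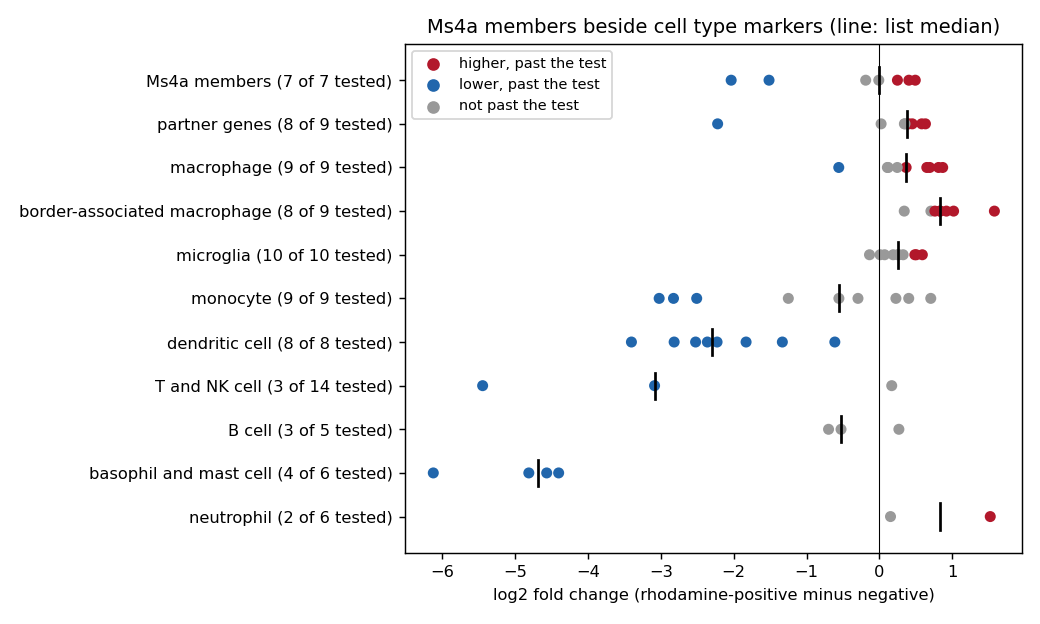
Log2 fold change (rhodamine-positive minus rhodamine-negative) of every tested gene of the Ms4a members, their partner genes and 9 marker lists; red dots rose, blue dots fell, grey dots did not pass, and the black bar is the list median. The members spread on both sides of zero, the dendritic cell list lies wholly to the left (median -2.29), and the list of border-associated macrophages lies to the right (median 0.83).

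Whether the members changed differently in male and female mice was tested as an interaction in the same kind of fit. None of the 7 members, nor any of the 15014 genes, passed at an adjusted p of 0.05 in edgeR, and 1160 genes had an unadjusted p under 0.05. The nearest member was Ms4a7, with mean pair differences of 0.73 in the 2 female and 0.38 in the 4 male mice (interaction 0.35, SE 0.17, edgeR adjusted p = 0.651). With 2 female mice, this p does not show that the sexes responded alike.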

How the data were processed

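RNA from 12 sorted libraries, 6 rhodamine-positive and 6 rhodamine-negative, was sequenced on an Illumina HiSeq. Build mm10 and the tools HISAT2 2.1.0, featureCounts 1.4.4, bcl2fastq 2.17, cutadapt, limma and edgeR are named, per the submitters' processing notes; roles, parameters and the strand setting are not given in the sources used here. The authors deposited raw counts per gene and a log2 table of normalized values for 10605 genes. All 12 count files held the values of the count table. The log2 table equalled log2 CPM plus a constant per library, and was used for 1 alternative only.

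Raw counts were filtered with edgeR 4.0.16 (filterByExpr, minimum count 10, minimum total 15) in R 4.3.3, leaving 15014 genes with 99.8% of counts. Counts were scaled by TMM (trimmed mean of M values) and tested with the quasi-likelihood test, with the mouse as a block and Benjamini-Hochberg adjustment over all genes tested. The SE of a log2 fold change was its absolute value over the square root of F. Log2 CPM used a prior count of 2. Coordinates, lengths and coding sequences came from GENCODE vM21 and promoters from RefSeq. With the mouse as a block, p-values set a change against the spread of the within-mouse differences of these 6 mice. They do not measure the spread between mice, and the fit shares information on spread across genes.

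The pairing comes from the series description. As a check, the deviations of a mouse's 2 libraries from their group means had r = 0.226, 0.207, 0.289, 0.0775, 0.302 and 0.45 across genes in mice 1 to 6; the highest value with another mouse was 0.148 to 0.187, above that of mouse 4. No library was a copy of another (lowest chi-square per degree of freedom 20.8 among rhodamine-positive and 17.5 among rhodamine-negative libraries).

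The members, gene lists and motifs were chosen with earlier results of these data known. All 7 members are named, with every other Ms4a gene, the 3 genes of most like profile (predicted, Rik and receptor segment genes skipped), and, of each list, up to 4 genes with the smallest p and the defining markers. Further list genes, such as Trbc2, Fn1, F10, Chil3, Ccr7, Csf3r, Cd79b, S100a8, S100a9 and Ly6g, were named after their values were seen. Most genes of the marker lists enter only the counts, medians and sums, and some results on list genes are not reported here. Protein sequences were not used here. On simulated counts for 15014 genes of this comparison, the test recovered 32% of 100 genes given a log2 change of 0.5 and 80% of 100 given 1, with 6 false calls among 118. Only these genes were given a change, where the data called 26.2% of genes, and none was drawn from the genes of lowest counts. The shares recovered therefore do not carry over to the real comparison. Alternatives covered the block, DESeq2 1.42.0, limma 3.58.1, scaling, filters, the male mice by themselves and leaving out each mouse in turn.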

Additional observations from a re-analysis of the deposited data

Results flagged for a closer look

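In 21 sets of 6 values (each member in each sort, and its 6 pair differences), the gap between an extreme value and its nearest neighbour was compared with the whole range. The gap passed Dixon's 95% critical share of the range in 5 sets. The 21 sets are not independent, because pair differences come from the same libraries and Ms4a6b and Ms4a6c share sequence. The share of all genes tested that pass was not computed. The 5 sets therefore cannot be compared with a rate given by chance. All 5 concern mouse 2.

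Ms4a4a was lower in the rhodamine-positive sort of mouse 2, by -0.26 on the log2 scale, whereas the other 5 mice had differences of 0.40 to 0.69. The difference of Ms4a6d was highest in mouse 2, at 0.48, against 0.14 to 0.25 in the others.

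Ms4a6b had a log2 CPM of 6.63 in the rhodamine-positive sort of mouse 2, where the other 5 mice had 7.29 to 7.51, and 7.02 in its rhodamine-negative sort, where the others had 7.49 to 7.71. Ms4a6c had a log2 CPM of 7.32 in the rhodamine-positive sort of mouse 2, against 7.94 to 8.16 in the others. The libraries of mouse 2 held 17379314 counts in the rhodamine-positive and 16008223 in the rhodamine-negative sort. Without mouse 2 the log2 fold change was 0.53 for Ms4a4a and 0.20 for Ms4a6d. Whether mouse 2 stands apart over all genes, and why, was not tested.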

How the results depend on the processing

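Across 16 other settings, Ms4a4b and Ms4a4c kept their direction and their call in each, and Ms4a7 in all but the fit without the mouse as a block. Without the replicate block, 1270 genes were higher and 1398 lower, 0 of the members were past the threshold as higher, and the adjusted p was 0.355 for Ms4a7, 0.198 for Ms4a4a and 0.289 for Ms4a6d. With library size alone 852 genes were higher and 3142 lower, and 1 member higher. In male mice alone 1005 genes were higher and 1222 lower, and 1 member higher; that setting has fewer samples. Leaving out 1 mouse at a time gave 1257 to 1780 genes higher and 1421 to 1820 lower, with 1 to 3 members higher and 2 lower in each. Ms4a4a lost its call in 7 settings and Ms4a6d in 9. Ms4a6d lost it with upper-quartile scaling (adjusted p = 0.0598) and with no filter (0.083) too, and Ms4a6b gained one with library size alone and on the deposited log2 table. Ms4a6c changed sign at 0.0019 with no filter and, with a mouse left out, ranged from -0.0683 to 0.0373 (0.0013 without mouse 1, 0.0206 without mouse 2, 0.0373 without mouse 4 and 0.0014 without mouse 5), far under its SE of 0.09. The cause of these moves was not tested. Depth limits Ms4a4b most, at 10 to 51 counts in a rhodamine-positive library and 67 to 155 in a rhodamine-negative one.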

Other observations

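Levels of some members in the 2 sexes are given here within a sort, as values with no call. In rhodamine-negative sorts Ms4a7 was at 71.58 and 85.95 CPM in the 2 female mice and at 136.3 to 288.1 CPM in the 4 male mice. Ms4a4c went the other way, at 197.0 and 230.1 CPM in female and 77.56 to 123.7 CPM in male mice. Ms4a4b had 6.68 and 10.12 CPM in female and 4.03 to 6.53 CPM in male mice. In each of these 3 the sexes did not overlap, with an exact two-sided permutation p = 0.0667, which is the smallest that 2 against 4 mice allow. The 14 comparisons of this kind, 7 members in 2 sorts, were not adjusted, and 0.0667 is above the threshold for every one. In rhodamine-positive sorts Ms4a7 was at 129.4 and 130.7 CPM in female and 157.6 to 405.9 CPM in male mice. Ms4a6b was at 180.8 and 181.7 CPM in female and 99.19 to 177.9 CPM in male mice of that sort. Ms4a6c was there at 284.3 and 286.6 CPM in female and 159.7 to 276.1 CPM in male mice. The sexes did not overlap here either, with exact two-sided permutation p = 0.2 for Ms4a7 and 0.4 for Ms4a6b and Ms4a6c. The share of all genes tested that separate the sexes like this was not computed, and the members were measured in the same mice. These separations therefore cannot be read as a trait of the members.

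Ms4a2 counts in rhodamine-negative libraries were uneven, with 127 counts in mouse 5 and 1 to 31 in the other 5 mice, against 0 to 2 in rhodamine-positive libraries.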
